A study of Rattus norvegicus with 16 samples.

Results

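The potassium channel genes of the rat spinal dorsal horn were the 34 protein-coding genes with a Kcn symbol, apart from Kcnj10, that had a row in a table of RNAs enriched by RNA immunoprecipitation (RIP). They were chosen by symbol and biotype among the 8420 protein-coding genes of that table. Every row had passed the authors' threshold on IP over input, so enrichment is what brought a gene into the group and is described without a test. Of 95 protein-coding Kcn symbols in RefSeq (assembly GRCr8), 35 had a row, Kcnj10 included, and the other 60 were not analysed here.

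The samples came from wild-type rats, as labelled, and were total RNA of the dorsal horn in 2 conditions: cancer-induced bone pain (CIBP) and normal (called Control). For N4-acetylcytidine (ac4C), an acetylated cytidine in RNA, each of the 3 CIBP and 3 Control replicates had an antibody-enriched (IP) and an input library, and each pair gave 1 peak list. The RIP was made in CIBP, with 2 IP and 2 input libraries, and the labels used here do not name the target of its antibody. The labels call the replicates biological but do not say whether 1 rat or several made up a sample. The names of the CIBP peak lists read CFA where the sample labels read CIBP, and samples were grouped by label.

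Potassium channels let potassium leave the cell and so hold or return the membrane potential to rest. Voltage-gated (Kv) channels open on depolarization and shape the action potential and its repetition. Inward rectifiers (Kir) and tandem-pore leak channels set the resting potential, and calcium- or sodium-activated channels open after activity. Auxiliary subunits carry no pore and alter gating or surface transport. In the dorsal horn, where sensory fibres meet spinal neurons, such channels limit the firing of relay and inhibitory neurons, and several Kir and leak channels are also used by glia.

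Depth is unknown for all libraries, because the files give no read totals. At a false discovery rate (FDR) of at most 0.05, the CIBP lists held 899 to 1240 peaks and the Control lists 916 to 1074. One list, from 1 IP and input pair, stood apart. As deposited, CIBP 1 held 50417 peaks, against 1173 to 2416 in the other 5 lists. Of the CIBP 1 peaks, 49103 carried a fold of 10.6 with a p-value of 0.0372. All of these peaks lay above the FDR limit, and results below use the limit unless stated. Of listed cell type markers, 9 of 12 neuronal genes had a row in the RIP table. For dorsal horn neurons these were 5 of 9 excitatory and 7 of 9 inhibitory genes. Glial rows covered 8 of 8 astrocyte, 9 of 9 oligodendrocyte and 6 of 8 microglial genes. The rest were 2 of 5 endothelial genes and 2 of 6 genes of sensory ganglia. A row required enrichment of IP over input, so a missing row does not show that an RNA was absent.

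Acetylation peaks lay in 12 of the 34 potassium channel genes, in each case as called by the authors for a single IP and input pair, and all peak folds are theirs. This share of 35.3% stood beside 37.4% of all 8420 protein-coding genes. In 5 genes there were peaks in both conditions, among them the Shaker channels Kcna1 and Kcna2, the leak channel Kcnk1 and the large-conductance channel Kcnma1. Under the limit, Kcnh2, Kcnt1, Kcnab2 and Kcnd3 had peaks in CIBP lists alone, and Kcna6, Kcnc1 and Kcnj16 in Control lists alone. The same split was not counted over all protein-coding genes, so it is not read as a trait of these genes. The CIBP lists 1, 2 and 3 named 6, 2 and 3 members, against 2, 4 and 5 members in the Control lists 1, 2 and 3. The mean was 3.67 ± 2.08 in CIBP and 3.67 ± 1.53 in Control (SD, n = 3 lists each), and the groups overlapped. Of all protein-coding genes, 8.68%, 11.5% and 7.97% had a peak in the CIBP lists, and 8.33%, 9.79% and 9.45% in the Control lists.

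**Figure D1:**
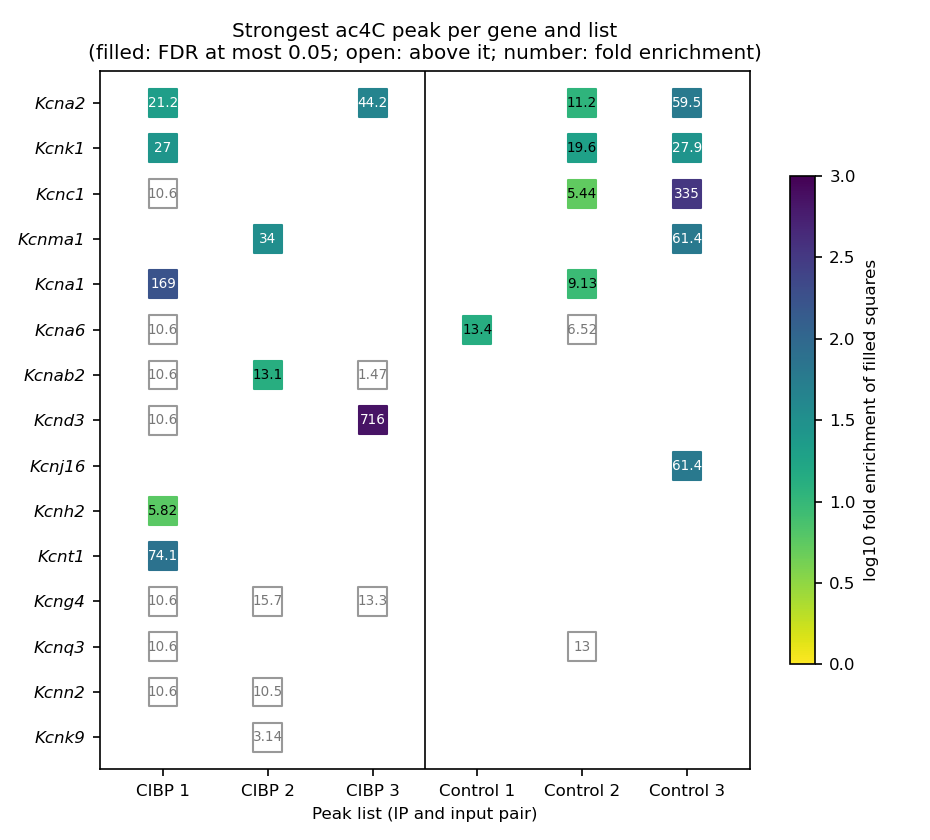
Strongest ac4C peak of each potassium channel gene (rows), taken among peaks under the FDR limit where there was one, in the 3 CIBP and 3 Control lists (columns), for 15 genes with a peak under the FDR limit or with a peak outside the CIBP 1 list. Filled squares passed an FDR of 0.05 and are coloured by fold enrichment (log10 scale), open squares did not, and the number in a square is the fold. Kcna2 is filled in 2 CIBP and 2 Control lists, and many of the open CIBP 1 squares hold the recurrent fold of 10.6.

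Peaks in at least 2 lists were found in 6 members (17.6%), against 12.8% of all protein-coding genes. Among them were Kcna1, Kcna2, Kcnc1, Kcnk1 and Kcnma1.

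No member was gained, meaning a peak in at least 2 of 3 CIBP lists and in 0 of 3 Control lists, and 1 member was lost, meaning the opposite. Over all protein-coding genes 1.82% were gained and 1.75% were lost. The lost gene was Kcnc1. With 3 lists a side, a two-sided Fisher's exact test of 1 gene reaches p = 0.4 where 2 lists face 0, and at best p = 0.1, so calls on single genes are descriptions. The call rested on single lists. Without Control 2 or without Control 3 no member was lost, and without CIBP 1 Kcnk1 was lost as well. Without Control 1, 1 member counted as gained.

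Kcna2 encodes Kv1.2, a Shaker-type channel of axons that opens near threshold and restrains firing. It had the most peaks of the 34 genes, 9 in 4 of the 6 lists, a number of lists that 1.22% of all protein-coding genes reached. In CIBP 1 its peaks had folds of 21.2 and 3.06, and in CIBP 3 a single peak had a fold of 44.2. In Control 2 the folds were 2.97, 9.13 and 11.2, and in Control 3 they were 14.0, 59.5 and 8.93. The CIBP 3 fold and p-value occurred in 15 other peaks of that list. Those of the Control 2 peak with a fold of 9.13 occurred in 8 others. The remaining Kcna2 peaks shared theirs with at most 1 other. CIBP 2 and Control 1 held no Kcna2 peak, so each condition had 1 list without and 2 with. The 9 peaks spread over 13483 bp on the plus strand of chromosome 2 (209838869 to 209852351, rn6).

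One segment of Kcna2 recurred across conditions. Peaks ran from 209852112 to 209852232 in CIBP 1, from 209852082 to 209852232 in Control 2 and from 209852202 to 209852351 in Control 3. They shared 121 bp between CIBP 1 and Control 2, and 31 bp between CIBP 1 and Control 3 and between the Control lists. The fold there was 3.06 in CIBP 1, against 11.2 in Control 2 and 8.93 in Control 3. The other Kcna2 peaks had centres at -12487.5 to -2125 bp from the centre of the Control 2 peak there, and overlapped no peak of another list. Whether these segments are coding or untranslated was not analysed here, since it needs the rn6 annotation.

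**Figure D2:**
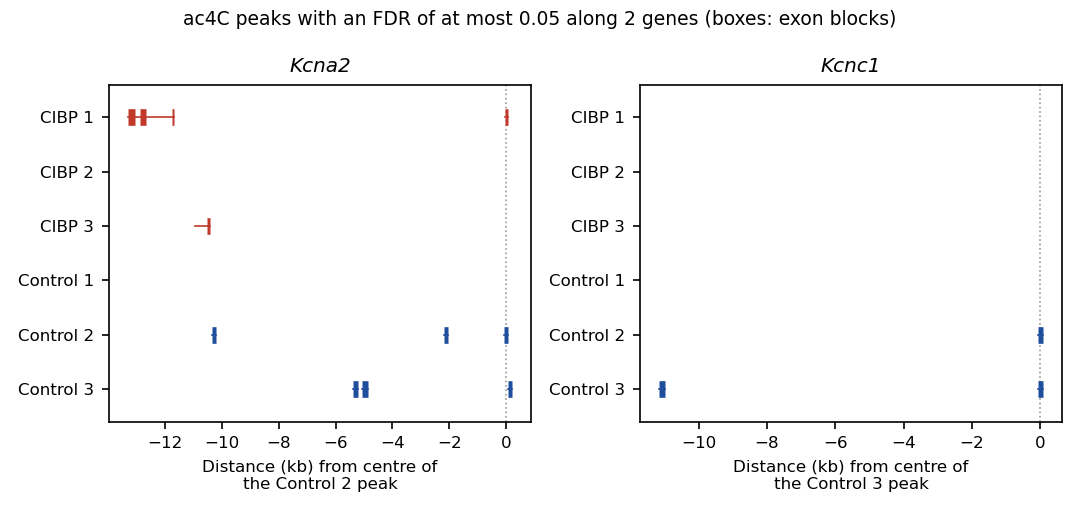
Positions of ac4C peaks with an FDR of at most 0.05 along Kcna2 and Kcnc1, by list, with CIBP lists in red above Control lists in blue. The horizontal axis is the distance in kb from the centre of one peak of the list named under each panel, boxes are exon blocks and thin lines join the blocks of one peak. Kcna2 peaks of 3 lists and Kcnc1 peaks of 2 lists meet near 0.

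Kcnc1 encodes Kv3.1, which closes quickly and lets neurons fire at high rates. In Kcnc1, Control 2 and Control 3 called the same 150 bp segment with identical ends (chromosome 1, 102456262 to 102456411, plus strand). The fold of this segment was 5.44 in Control 2 and 335 in Control 3, where it ranked number 7 of all peaks by fold. Control 3 held a further Kcnc1 peak with a fold of 3.01, its centre at -11071 bp from that of the shared segment. Under the limit no CIBP list held a Kcnc1 peak. As deposited, CIBP 1 held a Kcnc1 peak at the recurrent fold of 10.6, so the gene was not lost in the full lists. That peak ran from 102414625 to 102414954 and did not overlap the shared segment. The related genes Kcnc2 and Kcnc4 had no peak under the limit in any list.

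Kcna1 and Kcna6 encode Kv1.1 and Kv1.6, Shaker subunits that assemble with Kv1.2. Both lie on the minus strand of chromosome 4. Kcna1 had a peak with a fold of 169 in CIBP 1 and one with a fold of 9.13 in Control 2, which did not overlap within a span of 1634 bp. Kcna6 had a peak with a fold of 13.4 in Control 1 under the limit, and in Control 2 its peaks had folds of 6.52 and 3.26 at an FDR of 0.0794. CIBP 1 held 3 Kcna6 peaks above the limit, at the recurrent fold of 10.6 and an FDR of 0.0562, and 1 of them had the same ends as the Control 2 peak with a fold of 6.52 (180 bp). Kcna3 (Kv1.3, also found in immune cells) had no peak under the limit.

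Kcnk1 encodes TWIK-1, a leak channel of neurons and astrocytes, and was one of 3 members with a peak in at least 3 lists (8.82%, against 3.86% of all protein-coding genes). Its folds were 27.0 in CIBP 1, against 19.6 in Control 2 and 27.9 in Control 3. The 3 peaks did not overlap and spread over 38461 bp of chromosome 19. As deposited, the Control 3 peak shared 31 bp with a CIBP 1 peak above the limit (58823814 to 58824081), at the recurrent fold of 10.6. The CIBP 1 fold of 27.0 and its p-value occurred in 1 other peak of its list. The Control 2 value occurred in 123 other peaks of its list and the Control 3 value in 57, and the Control 2 peak had the FDR nearest to the limit of all member peaks that passed (0.0288). Apart from CIBP 1, the nearest member peak outside the limit had an FDR of 0.0617. Member peaks at the recurrent fold in CIBP 1 lay nearer, at an FDR of 0.0562.

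Kcnma1 encodes BK, opened by calcium and depolarization together. Its fold was 34.0 in CIBP 2, against 61.4 in Control 3, at places that did not overlap. The Control 3 peak joined 2 blocks that span an interval from 344898 to 542961 on chromosome 15, with an exonic width of 240 bp. Kcnj16, which encodes Kir5.1, a partner of Kir4.1 in astrocytes, had a peak in Control 3 with the same fold of 61.4 and the same p-value, values that 14 peaks of that list had in all.

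The genes with peaks in CIBP lists alone had 1 list each under the limit. Kcnd3 encodes Kv4.3, which carries an A-type current that delays firing, and had the largest fold of all member peaks, 716 in CIBP 3 (chromosome 2, 208138215 to 208138485). Kcnt1, the sodium-activated channel Slack, had a fold of 74.1 in CIBP 1. Kcnab2, the cytosolic beta subunit of Shaker channels, had a fold of 13.1 in CIBP 2. Kcnh2, the ERG channel also known for cardiac repolarization, had a fold of 5.82 in CIBP 1. Of the 29 member peaks under the limit, 12 had a fold and p-value that no other peak of their list had, and 6 shared theirs with more than 10 others.

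As deposited, with no FDR limit, all 34 genes had a peak, 19 of them in CIBP 1 alone. The lists named 31, 6 and 5 members in CIBP 1, 2 and 3, against 3, 6 and 6 in Control 1, 2 and 3. Apart from CIBP 1 these numbers overlapped. Of all protein-coding genes, 81.8%, 20.3% and 10% had a peak in the CIBP lists as deposited. In the Control lists the shares were 10.6%, 15.9% and 12.8%. Gained members numbered 4 (11.8%), where 11.6% of all protein-coding genes were gained, and none was lost, against 0.76% of all. The 4 were Kcnab2 and Kcng4, in 3 CIBP lists against 0, and Kcnd3 and Kcnn2, in 2 against 0. Kcng4 is a silent Kv subunit that needs a partner to form a channel, and Kcnn2 encodes the small-conductance calcium-activated channel SK2. Each of the 4 counted in CIBP 1 through peaks at the recurrent fold of 10.6. The CIBP 2 peaks of Kcng4 and Kcnn2, with folds of 15.7 and 10.5, had an FDR of 0.127.

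The recurrent fold of 10.6 occurred in 29 of the 34 genes (85.3%) and in 78.6% of all protein-coding genes. The members without it were Kcna1, Kcna2, Kcnj16, Kcnk9 and Kcnma1. Their median RIP input signal was 9.71, against 2.87 in the 29 members with it.

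Genes with a peak had more signal in the RIP input, libraries that were separate from those of the ac4C lists. The unit of the signal is not stated, so whether it is scaled for gene length is not known and levels of single genes are not ranked as abundance. In bulk RNA, fewer cells of a type and less RNA per cell cannot be told apart. The 12 members with a peak under the limit had a median mean input signal of 4.84, against 2.14 in the 22 without. Over all protein-coding genes it was 4.51 in the 3149 with a peak and 2.82 in the 5271 without. In the lowest quartile of input signal, 0 of 11 members had a peak, in the second 3 of 7, in the third 4 of 8 and in the highest 5 of 8. The shares of all protein-coding genes were 22.8%, 29.7%, 40.8% and 56.3%. How far input signal sets which genes have a called peak was not tested.

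**Figure D3:**
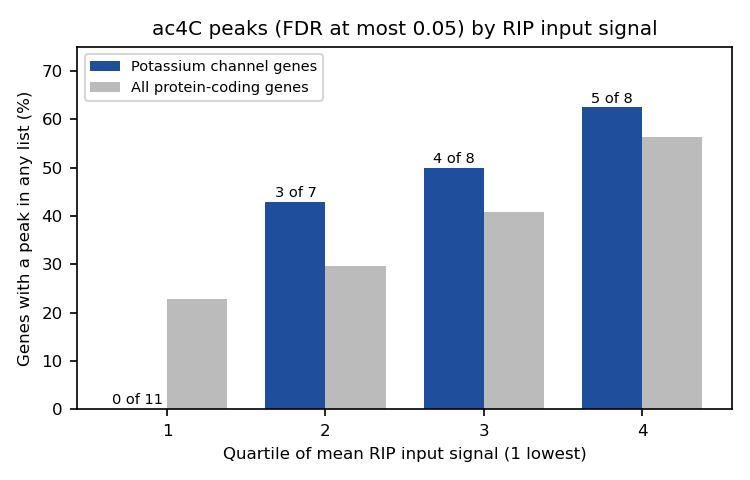
Share of genes with an ac4C peak in any of the 6 lists (FDR at most 0.05) by quartile of mean RIP input signal, for the potassium channel genes (blue, with numbers) and all protein-coding genes (grey). The share of all protein-coding genes is 22.8% in the lowest and 56.3% in the highest quartile, and 0 of 11 potassium channel genes had a peak in the lowest.

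In the RIP from CIBP, the potassium channel genes had lower folds of IP over input than most protein-coding genes of the table. Their median log2 fold in the authors' deposited table was 2.14, against 2.40 over all 8420. Of the 34 genes, 26 lay below that overall median and 15 below the lower quartile of 2.07 (44.1%), while 4 lay above the upper quartile of 2.70. Listed neuronal markers also lay low, with medians of 2.22 (9 neuronal genes), 1.96 (5 dorsal horn excitatory genes) and 2.19 (7 inhibitory genes). Endothelial and sensory ganglia markers, 2 genes each, also had medians below 2.40. Glial medians were higher, at 2.47 in astrocyte, 3.26 in oligodendrocyte and 2.99 in microglial markers. The low median was thus not particular to potassium channel genes. Whether they differed from neuronal genes was not tested. All 34 genes had both IP values above both input values, and the largest FDR of a member in the authors' deposited table was 1.05e-04. Every row had passed the authors' threshold on this same contrast, so these values describe the members and are no test of enrichment. With 2 libraries a side, an exact test of a single gene cannot go below p = 0.333. The ratio of IP to input within pairs gave median log2 values of 2.16 for pair 1 and 2.05 for pair 2, against 2.45 and 2.37 over all protein-coding genes. Across the 34 genes the pairs ordered the folds alike (Spearman rho 0.85), beside a rho of 0.67 across all protein-coding genes. In both cases the points share the 4 libraries.

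**Figure D4:**
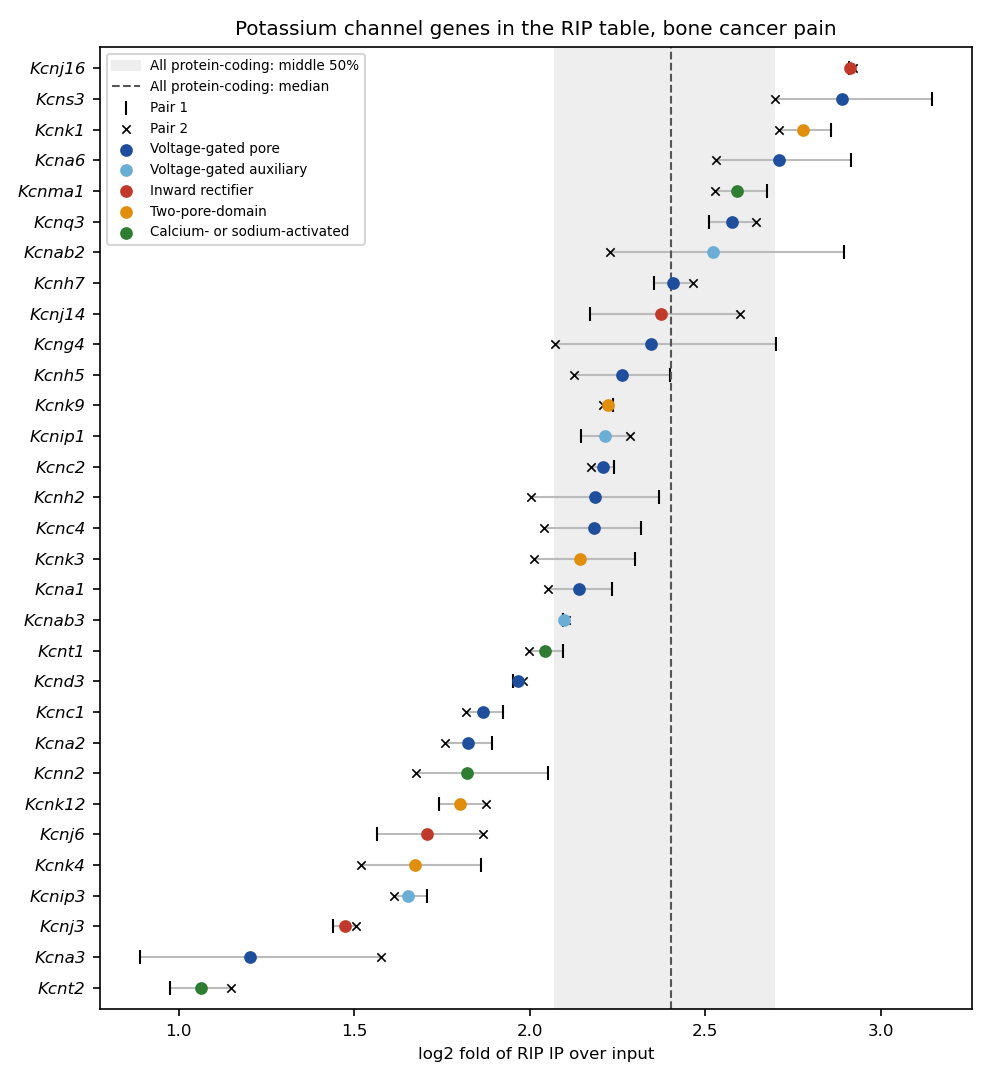
Log2 fold of RIP IP over input for 31 of the 34 potassium channel genes, ordered by the authors' deposited value (coloured dots, by channel class), with the ratios of pair 1 and pair 2 as black marks. The dashed line and grey band are the median and middle 50% of all protein-coding genes of the table. Most dots lie left of the dashed line, and the 2 pair marks lie furthest apart for Kcna3 and Kcnab2.

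The class medians ran from 1.93 to 2.18, and the classes overlapped in range. In the authors' deposited table the 17 Kv pore genes had a median log2 fold of 2.18 (1.20 to 2.89), and the 4 auxiliary genes 2.16 (1.65 to 2.52). The 4 inward rectifiers had a median of 2.04 (1.47 to 2.91), the 5 leak channels 2.14 (1.67 to 2.78) and the 4 calcium- or sodium-activated channels 1.93 (1.06 to 2.59). All of these medians lay below that of all protein-coding genes.

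Kcnj16 led the group. Its signal was 35.6 and 37.6 in IP 1 and 2, against 4.73 and 4.95 in input 1 and 2. Both pairs gave about the same ratio, 7.51 and 7.58. The log2 fold in the authors' deposited table was 2.91, and 88.3% of protein-coding genes lay below it. Kcnj10, the Kir4.1 gene set aside by the choice of members, had a log2 fold of 3.01 in the authors' deposited table. The 8 astrocyte markers had a median of 2.47 there, the 9 neuronal markers 2.22 and the 9 oligodendrocyte markers 3.26.

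Next stood Kcns3, a silent Kv subunit that needs a partner to form a channel, with a log2 fold of 2.89 in the authors' deposited table. Its input signal was 1.02 and 1.44, close to the lowest value in the table (1.00), and its pair ratios were 8.86 and 6.49. Kcnk1 had a signal of 22.4 and 23.0 in IP, against 3.08 and 3.52 in input. Kcna6 had 24.9 and 24.3 in IP, against 3.30 and 4.21 in input. Their log2 folds in the authors' deposited table were 2.78 and 2.71. Kcna6 thus lay at the top of the Shaker genes.

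Kcnma1 had a signal of 24.0 and 27.7 in IP, against 3.75 and 4.80 in input. Kcnq3, a subunit of the M-current channel that damps repeated firing, had 17.2 and 17.1 in IP, against 3.01 and 2.73 in input. Kcnab2 had 66.3 and 65.4 in IP, against 8.91 and 13.9 in input, so its pair ratios of 7.44 and 4.69 differed through the input libraries. Kcnh7, an ERG channel of neurons, had 8.04 and 8.66 in IP, against 1.57 in both inputs. In the authors' deposited table their log2 folds were 2.59, 2.58, 2.52 and 2.41, the last close to the median of all genes.

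Kcna3, Kcnab2 and Kcng4 differed most between pairs, by up to 0.69 on the log2 scale. Kcna3 had pair ratios of 1.85 and 2.98, Kcnab2 of 7.44 and 4.69, and Kcng4 of 6.51 and 4.21. Over the 34 genes the median absolute difference between pairs was 0.16, against 0.24 over all protein-coding genes.

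The Shaker genes with the largest signals were not among the most enriched. Kcna2 had 107 and 103 in IP, against 28.8 and 30.3 in input. Kcna1 had 113 and 112 in IP, against 24.1 and 26.9 in input. Every IP value of these genes was above every input value, as in all 34 members. Their log2 folds in the authors' deposited table were 1.83 and 2.14, both below the overall median.

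Kcnc1 had 35.6 and 38.5 in IP, against 9.38 and 10.9 in input, and a log2 fold of 1.87 in the authors' deposited table. Kcnk9, the leak channel TASK-3, had 46.5 and 44.2 in IP, against 9.86 and 9.56 in input, and a log2 fold of 2.22 there. Across the 34 genes the input signal and the log2 fold were nearly unrelated (Spearman rho 0.07, with the input in both measures), as across all protein-coding genes (rho -0.00065).

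**Figure D5:**
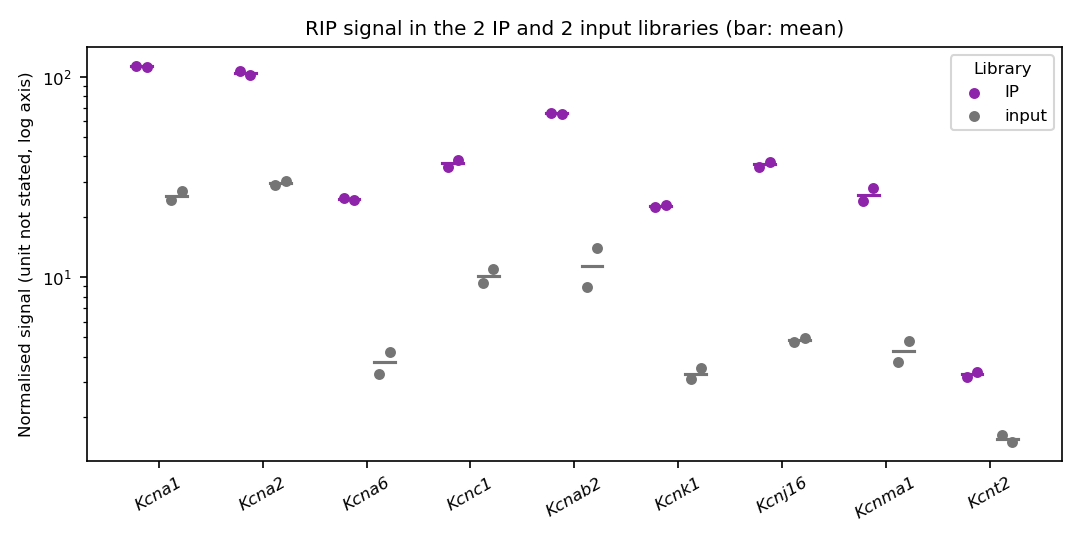
Normalised RIP signal (log axis, unit not stated) of 9 potassium channel genes in the 2 IP libraries (purple) and the 2 input libraries (grey), with a bar at the mean of each. IP and input do not overlap for any of the 9 genes, and the gap is narrowest for Kcnt2.

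The lowest folds included a sodium-activated channel, a Shaker channel and both listed GIRK subunits. Kcnt2, the sodium-activated channel Slick, had a signal of 3.19 and 3.34 in IP, against 1.62 and 1.51 in input, and the lowest log2 fold of the group in the authors' deposited table, 1.06. Kcna3 had 2.90 and 3.05 in IP, against 1.56 and 1.02 in input. Kcnj3 and Kcnj6 encode GIRK1 and GIRK2, which open when opioid and other inhibitory receptors are active. Kcnj3 had 22.2 and 27.3 in IP, against 8.18 and 9.63 in input. Kcnj6 had 6.74 and 6.58 in IP, against 2.28 and 1.80 in input. In the authors' deposited table the log2 fold was 1.47 for Kcnj3, 1.71 for Kcnj6 and 1.20 for Kcna3, and 3.82% of protein-coding genes lay below Kcnj3.

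Kcnip3, a calcium sensor that binds Kv4 channels, had 6.90 and 7.31 in IP, against 2.11 and 2.39 in input. Kcnk4, the stretch-sensitive leak channel TRAAK, had 5.22 and 5.18 in IP, against 1.44 and 1.81 in input. Their log2 folds in the authors' deposited table were 1.65 and 1.67. Of the 34 genes, 9 had a mean input signal under 2, among them Kcnt2, Kcna3, Kcnk4 and Kcns3, so both ends of the order include genes with very little input.

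The other named genes lay between these ends in the authors' deposited table. They ran from Kcnk12 at 1.80 and Kcnn2 at 1.82, through Kcnd3 (1.97), Kcnt1 (2.04) and Kcnk3 (2.14), to Kcnc4 (2.18), Kcnh2 (2.19), Kcnc2 (2.21) and Kcnip1 (2.21). The beta subunit Kcnab3 lay between Kcnt1 and Kcnk3. Above these genes stood Kcnh5 at 2.26, Kcng4 at 2.34 and Kcnj14 at 2.37.

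The 12 members with an ac4C peak and the 22 without had median log2 folds of 2.16 and 2.12 in the authors' deposited table. This gap was not tested. Over all protein-coding genes the medians were 2.44 with a peak and 2.38 without.

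Partner genes were set beside the potassium channel genes. They comprised scaffolds, auxiliary subunits, trafficking genes and kinases, related cation channels, and potassium pumps and cotransporters with their kinases. Of 43 such partners, 35 had a row, and their median log2 fold in the authors' deposited table was 2.40, the same as for all protein-coding genes. Under the limit 22 of the 35 partners (62.9%) had a peak, 0 were gained and 2 were lost. Peaks lay in 10 of 12 scaffold genes and in 10 of 12 pump and cotransporter genes. They lay in 1 of 4 auxiliary, 1 of 5 trafficking and 0 of 2 related cation channel genes. Over all protein-coding genes 37.4% had a peak, 1.82% were gained and 1.75% were lost. The share with a peak was 22.8% in the lowest and 56.3% in the highest quartile of input signal. Partners were not matched to other genes by input signal, so its part in their share was not tested. The CIBP lists named 6, 9 and 8 partners, against 11, 8 and 10 in the Control lists. Among the lost partners was the kinase Stk39, which regulates ion cotransporters, with 0 CIBP and 2 Control lists. As deposited, Stk39 had a peak in 2 CIBP and 2 Control lists. Dlg4, the scaffold PSD-95 that binds Shaker channels, had a peak in 3 CIBP lists and 1 Control list. Ank3, the scaffold of the axon initial segment that holds Kcnq3, had a peak in 3 CIBP and 2 Control lists, whereas Kcnq3 had none under the limit. The RIP input signal was 16.1 and 18.6 for Ank3, against 3.01 and 2.73 for Kcnq3. Its unit is not stated, and its part in whether these genes had a called peak was not tested.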

How the data were processed

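The members and gene lists were chosen with earlier results of these data known. Per the submitters' processing notes, the build was rn6 and the software included featureCounts 1.6.3, DESeq2, HOMER 4.10.4, cutadapt 2.5 and HISAT2 2.1.0, listed without roles, so which one called peaks is unknown here. Per the file headers, the deposited peak lists give for each peak a p-value, a ratio (fold enrichment over input) and scores that are log10 of that p-value and of the FDR. These folds are the authors' values and were not compared between lists by a test. The deposited RIP table holds the authors' log2 fold, p-value and FDR and a normalised signal per library whose unit is not stated. Every row had a log2 fold of at least 1.01 and a p-value of at most 0.0488. Depth is unknown, so no counting interval is given. Coordinates are 1-based.

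Python 3.11.15 and pandas 2.3.3 were used. Peaks were kept at an FDR of at most 0.05. Gained genes had a peak in 2 or 3 CIBP lists and 0 Control lists, and lost genes the reverse. Peaks overlapped when exon blocks on 1 strand shared at least 1 bp. The list and overlap counts were checked on simulated data. Named genes were those with peaks in at least 2 lists, those gained or lost under either rule, the 8 highest and 8 lowest RIP folds, the 6 largest input signals and the extremes of each class. Others were added to account for members. The results of 3 members and of some partner genes are not reported here.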

Additional observations from a re-analysis of the deposited data

How the results depend on the processing

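With all peaks as deposited, 4 members were gained, 0 were lost, 13 had a peak in at least 2 lists (6 under the FDR limit), and the mean number of members per list was 9.0 higher in CIBP than in Control (0 under the limit). Leaving out single lists gave 0 to 1 gained and 0 to 2 lost members, 4 to 6 members in at least 2 lists and a difference between conditions of -1.17 to 0.833 members per list. A limit of FDR at most 0.01, or 899 peaks in each list, gave 0 gained, 1 lost and 6 members in at least 2 lists. The median RIP log2 fold of members was 2.05 to 2.16 in single pairs and 1.84 with a pseudocount of 1. Its difference from all protein-coding genes was -0.326 to -0.294 in single pairs and -0.207 among genes with input signal at or above the median; it was negative in every setting run. With the pairs as a replicate block it was -0.267 (median 2.15), close to the main -0.262. For the peak lists, no paired analysis was possible because no label ties CIBP and Control replicates of one number together. The planned check of transcript length was not run, since the tables used give none for rn6.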
